A study of Mus musculus with 16 samples.

Results

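The genes described here encode the syndecans (Sdc1, Sdc2, Sdc3 and Sdc4), glypican 1 (Gpc1) and perlecan (Hspg2), which are core proteins that carry heparan sulfate, and Ext1, Ext2 and Ndst1, enzymes that build and sulfate this sugar chain. They were followed in gastrocnemius, a large muscle of the calf, from male C57BL6 mice 8 to 16 weeks old. The mice were 3 wild-type animals (WT, Eif6+/+) and 3 littermates with 1 functional copy of Eif6 (Het, Eif6+/-), and no animal was treated. Eif6 encodes an initiation factor that binds the large ribosomal subunit, and the Het mice lack a copy in every tissue, not in muscle alone. From each genotype there were 3 arrays of whole-muscle RNA, 3 of polysome RNA (pooled gradient fractions of transcripts with at least 2 ribosomes, from muscle lysed with cycloheximide) and 2 of monosome RNA (transcripts with 1 ribosome). The design states that the same mice gave all kinds of RNA, so that the 16 arrays come from 6 animals.

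All non-control probes with 1 of these 9 gene names were taken, which gave 12 of the 55681 probe names on the array. Of the 12 probes, 9 were bright enough to be tested, 1 for each gene, among 20250 tested probes with 15903 gene names. A probe entered the tests if the scanner software placed it clearly above local background on all arrays of 1 or more of the 6 groups. The other probe of Hspg2 was well above background on 4 of the 16 arrays, and the other probes of Ndst1 on 6 and 2, so these 3 probes were not tested. The 9 genes were chosen on the Het minus WT differences of whole-muscle RNA, among which Sdc4 and Ext2 stood near the top. That comparison, and the polysome to whole-muscle ratio between genotypes, which shares its arrays, are therefore described below without a test.

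Heparan sulfate is a long, sulfated sugar chain attached to core proteins at the cell surface and in the basement membrane. It binds growth factors, such as fibroblast and hepatocyte growth factor, and helps to present them to their receptors. Syndecans span the membrane, glypicans are held on it by a lipid anchor, and perlecan is secreted into the basement membrane around each muscle fibre. Ext1 and Ext2 act as a complex that lengthens the chain, and Ndst1 replaces acetyl groups on it by sulfate. In adult muscle Sdc3 and Sdc4 are known as markers of satellite cells, the stem cells of the tissue, and Sdc4 also takes part in focal adhesions.

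Each gene was read by a probe of 60 bases. The probes of Sdc4 and Ext2 are shown because the genotype results turn on them, and those of Sdc1, Sdc2 and Sdc3 because their signals differed between kinds of RNA. The first 30 bases are given, except for Ext2, whose probe is printed whole, 5′ to 3′ as in the array design.
Sdc1: atctgtatggtgccccatttttggcggccc
Sdc2: taatggccttaattcatacctttctgtcca
Sdc3: gagttcatggccaaaacttaaataagagaa
Sdc4: ttgttccaaatttccagaatagaatatagg
Ext2: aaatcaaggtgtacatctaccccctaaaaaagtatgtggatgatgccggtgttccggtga

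On mouse build mm9 the Sdc4 probe lies at chr2:164251211-164251270 on the minus strand and begins at base 936 of its transcript. The Ext2 probe lies at chr2:93653725-93653784, also on the minus strand, and begins at base 519 of its transcript, with 1 reading frame free of stop codons. The Sdc1 probe is at chr12:8799383-8799442, the Sdc2 probe at chr15:32964204-32964263 and the Sdc3 probe at chr4:130382015-130382074, all on the plus strand. These 3 probes begin at bases 1945, 3040 and 4753 of their transcripts. The annotation used here did not give the ends of coding sequences, so exons and untranslated parts are not stated. The 9 tested probes had between 35% and 55% G and C bases, with a median of 38.3%, against 45% for all tested probes.

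Sdc4 and Ext2 were also the members whose whole-muscle signal was higher in Het mice by more than 1 on the log2 scale, so the 250 bases before their annotated start sites are shown (RefSeq, build GRCm38.p6, gene strand). Capitals mark matches to any of 5 short motifs, searched on both strands: the GC box (GGGCGG or CCGCCC), the CCAAT box (CCAAT or ATTGG), the TATA box (TATAAA or TTTATA), the AP-1 element (TGANTCA) and the E-box (CACGTG).
Sdc4, chr2:164443189-164443438: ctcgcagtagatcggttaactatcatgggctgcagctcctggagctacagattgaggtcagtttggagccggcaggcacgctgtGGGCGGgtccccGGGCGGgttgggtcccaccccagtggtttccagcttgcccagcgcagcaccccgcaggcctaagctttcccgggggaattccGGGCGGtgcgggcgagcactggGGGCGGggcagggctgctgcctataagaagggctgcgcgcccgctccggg
Ext2, chr2:93822569-93822818: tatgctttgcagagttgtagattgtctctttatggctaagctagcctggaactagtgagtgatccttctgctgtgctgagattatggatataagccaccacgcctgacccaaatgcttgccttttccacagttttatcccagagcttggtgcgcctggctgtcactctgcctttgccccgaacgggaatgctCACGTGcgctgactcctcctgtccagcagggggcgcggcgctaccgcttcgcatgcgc

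The Sdc4 window held 4 GC boxes, beginning 166, 154, 72 and 50 bases before the start site, and none of the other motifs. The Ext2 window held 1 E-box, 58 bases before the start site, and none of the others. Of 32851 annotated promoters of this length, 32.7% held a GC box and 6.02% an E-box. The CCAAT box, TATA box and AP-1 element were in 33.8%, 12.4% and 6.75% of them. No motif was shared by the 2 windows.

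Some facts of the series touch several results. The 75th percentile of the signal, taken as the brightness of an array, was 42.3 to 150 scanner units on the WT whole-muscle arrays and 13.5 to 33.0 on the Het ones, so brightness moved with genotype in whole muscle. Polysome arrays of WT mice had a brightness of 24.1 to 66.1 and those of Het mice of 63.1 to 106. The arrays WT polysome 2 and WT monosome 2 stood apart. Over 1171 transcripts with probes at least 500 bases apart, the median log2 difference of the probe nearer the 5′ end minus that nearer the 3′ end was 0.60 and 0.82 on these arrays and between -1.35 and -0.79 on the other 14. Eif6 itself was lower on every Het array than on every WT array of the same kind of RNA, with log2 signals of 8.21 to 8.40 against 8.97 to 9.66 in whole muscle. All 10 muscle fibre markers were bright enough to be tested, as were 8 of 8 endothelial and 8 of 8 fibroblast markers, and the log2 summed signal of the fibre markers was 19.15 to 20.06 over the arrays. Arrays lay on 2 slides that both held WT and Het samples.

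Sdc4, the syndecan of focal adhesions, was higher in Het than in WT mice in all 3 kinds of RNA. All values that follow are quantile-normalized log2 signals, for which a difference of 1 is a doubling. In whole muscle the signals were 3.98, 3.59 and 3.55 in WT mice 1 to 3 and 5.61, 6.03 and 5.98 in Het mice 1 to 3. The polysome arrays read 4.27, 4.50 and 3.96 in WT, below the 5.62, 5.84 and 6.14 of Het mice. Monosome signals were 4.09 and 3.04 for WT mice 1 and 2 and 4.93 and 5.56 for Het mice 1 and 3. The lowest Het array was above the highest WT array within each kind of RNA. A difference of this kind was found in polysomes for 12.9% of all tested probes, and in all 3 kinds of RNA for 70 of the 20250 tested probes (0.346%), a count that includes the whole-muscle arrays with which the genes were chosen.

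**Figure D1:**
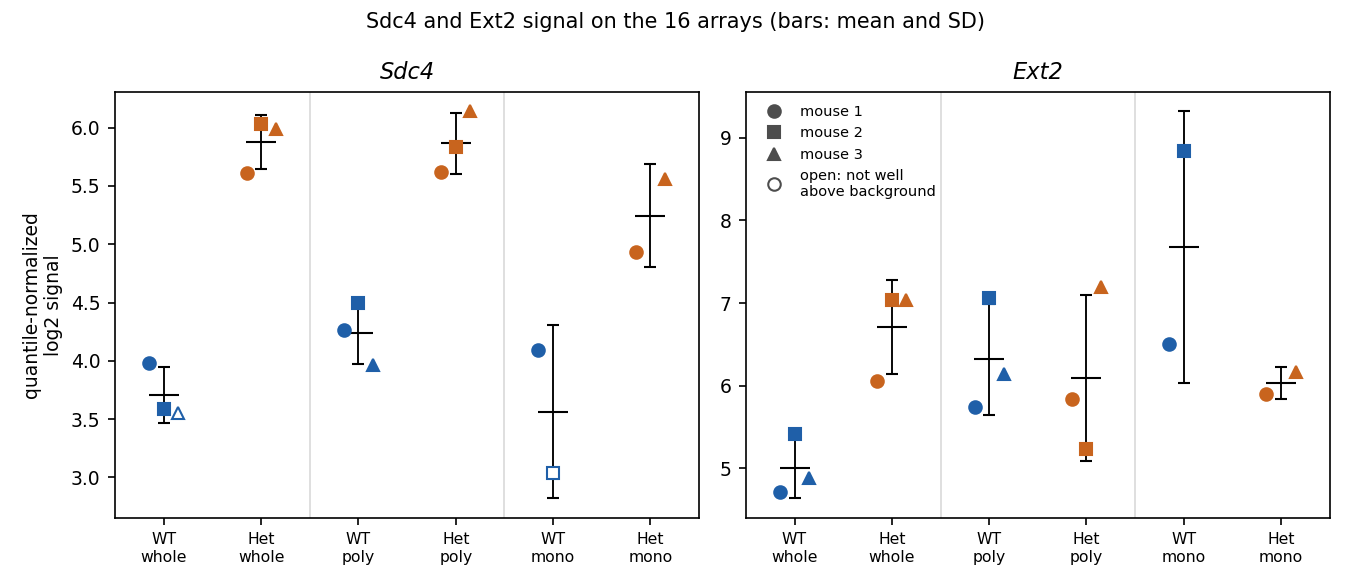
Quantile-normalized log2 signal (y axis) of Sdc4 and Ext2 on each of the 16 arrays, by genotype and kind of RNA (x axis), with bars for the mean and SD of 2 or 3 arrays, marker shapes for the mouse and open markers for spots not well above background. Het and WT arrays of Sdc4 do not overlap in any kind of RNA, while those of Ext2 overlap in polysomes, at 5.24 to 7.19 for Het and 5.75 to 7.06 for WT.

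The Het minus WT difference of Sdc4 in whole muscle was 2.17 (3.71 ± 0.24 in WT and 5.87 ± 0.23 in Het, SD, n = 3 each), a fold of 4.49, and ranked 8 among the 20250 probes. A whole-muscle difference above 1 was found for 2.82% of all tested probes and one beyond 1 in either direction for 8.93%. The polysome arrays were not those on which the genes were chosen, but they came from the same mice, and earlier results of these data were known. There the Sdc4 difference was 1.62 (SE 0.24, 95% interval 1.1 to 2.15), a fold of 3.08. By limma the unadjusted p was 2.85e-05 and the Benjamini-Hochberg adjusted p over all probes 0.136. The spread in that fit was estimated over 12 arrays, including the 6 whole-muscle arrays on which the genes were chosen. With the 6 polysome arrays alone the limma p was 0.00049 and the adjusted p 0.471. The difference thus passed the threshold of the study's methods (a log2 difference beyond 1 and p under 0.05, left unadjusted here), but not an adjusted p of 0.05. A 2-sided exact permutation test of the 6 polysome arrays gave 0.1, the smallest p that 3 against 3 allows. In monosome RNA the difference was 1.68 (SE 0.38, 95% interval 0.86 to 2.51), with an adjusted p of 0.0685 by limma. This fit likewise took its spread from all arrays, including the 6 whole-muscle arrays on which the genes were chosen. A 2-sided exact permutation test of the monosome arrays alone, which are too few for a small p, gave 0.3333.

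The size of the Sdc4 difference depended on the processing. In the authors' processed table, made from raw median signals with no background subtracted, the polysome difference was 0.72 (adjusted p = 0.0907 by limma), and with a normexp background correction, which also added an offset of 50 scanner units, it was 0.61 (adjusted p = 0.0775). Both have the same direction as the main value but lie under the study's limit of 1. On slide 1 the polysome difference was 1.23 and on slide 2 it was 2.03. Without WT polysome 2 it was 1.75, and without WT monosome 2 the monosome difference was 1.16. The monosome difference was also 0.50 with normexp, 0.52 in the authors' table, 0.84 on slide 1 and 2.52 on slide 2. The spot was not well above background on WT whole muscle 3 and WT monosome 2 and was well above it on the other 14 arrays.

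The levels of Sdc4 in order ran from Het whole muscle (5.87) and Het polysome (5.86) through Het monosome (5.25) to WT polysome (4.24), WT whole muscle (3.71) and WT monosome (3.56). The first pair overlapped, as did the WT groups. Across the 16 arrays the correlation of Sdc4 with log2 brightness was -0.02. With brightness as a term in the fit its Het minus WT difference was 2.04 in whole muscle, 1.68 in polysomes and 1.625 in monosomes. In whole muscle the brightness of WT and Het arrays did not overlap, so the parts of brightness and genotype cannot be told apart there. Fewer cells of a type and less RNA per cell cannot be told apart in such bulk samples.

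**Figure D2:**
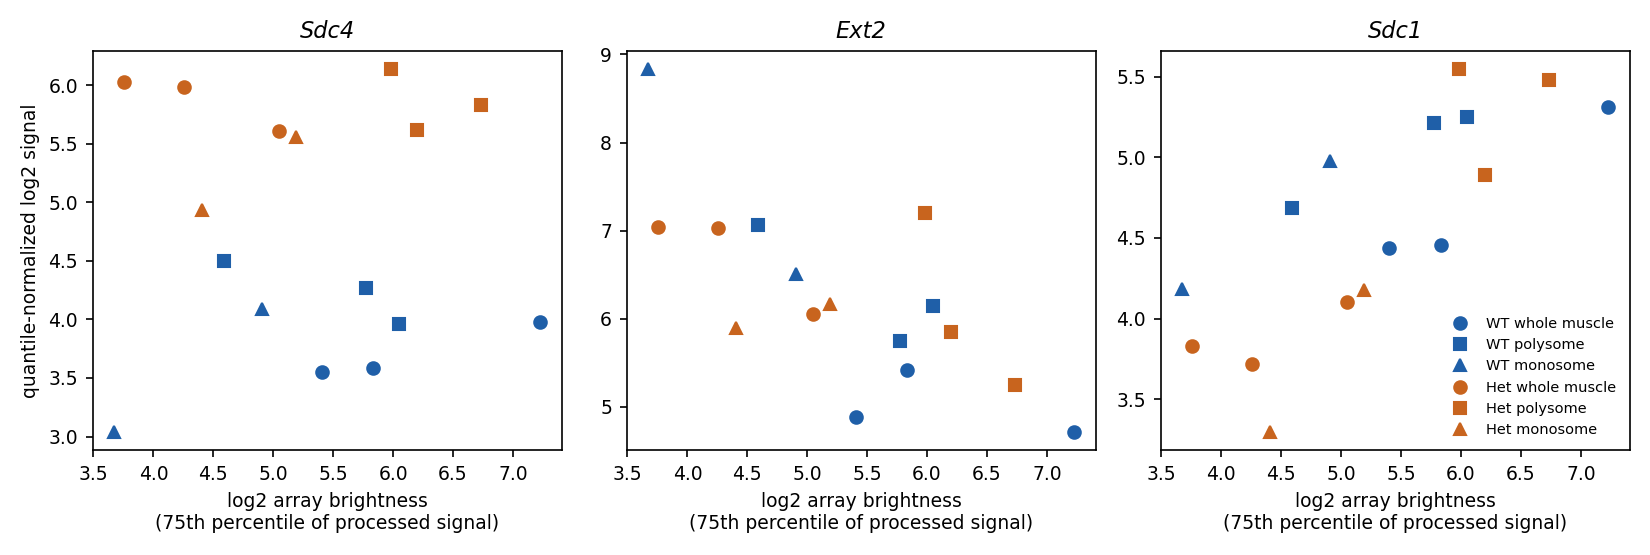
Quantile-normalized log2 signal (y axis) of Sdc4, Ext2 and Sdc1 against the log2 brightness of each array (x axis, 75th percentile of the processed signal), with 1 point for each of the 16 arrays, colours for the genotype and shapes for the kind of RNA. Sdc4 has a correlation of -0.02 with brightness over all arrays, and the WT and Het whole-muscle arrays share no brightness. Ext2 falls with brightness (r = -0.73) and Sdc1 rises with it (r = 0.78).

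Markers of satellite cells were examined beside Sdc4. Of 8 such markers on the array, 4 were bright enough to be tested (Pax7, Cd34, Itga7 and Vcam1), whereas Myf5, Calcr, Megf10 and Chodl were not. Their polysome differences, Het minus WT, were 0.41 for Pax7, 0.35 for Vcam1, -0.08 for Cd34 and -0.72 for Itga7, and none passed the study's threshold. In whole muscle all 4 lay between -0.35 and -0.12, while Sdc4 was at 2.17. The log2 of their summed signal in whole muscle was 11.09 to 11.32 for WT and 10.65 to 11.12 for Het. Other marker lists differed between genotypes beside Sdc4. In polysomes the log2 summed signal of the 10 muscle fibre markers was 19.84 to 19.91 for WT and 19.98 to 20.04 for Het, and 9 of the 10 were higher in Het. The sum of the 8 fibroblast markers was 15.85 to 15.89 in WT and 15.22 to 15.4 in Het polysomes, while their mean log2 signals overlapped (10.17 to 11.08 and 10.29 to 10.71) and 7 of the 8 were lower in Het. All 5 blood markers were lower in Het polysomes, with differences of -1.46 to -0.68 and summed signals of 15.27 to 15.69 for Het against 16.29 to 17.54 for WT. None of these 3 pairs of summed ranges overlapped. In whole muscle the mean log2 signal of the 8 endothelial markers was 6.72 to 7.12 for WT and 6.28 to 6.50 for Het, while their summed signals overlapped. The mean log2 signal of the 10 fibre markers was 15.12 to 15.36 for WT and 14.95 to 15.09 for Het whole muscle, the opposite order to that in polysomes, and their summed signals overlapped there. The 5 tested macrophage markers had whole-muscle differences of -2.62 to -0.46, but their summed signals overlapped, at 8.94 to 9.15 for Het and 8.75 to 11.24 for WT. Their part in the Sdc4 difference was not tested.

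Sdc4 and Eif6 are on the same chromosome, with their probes 8.61 Mb apart, whereas Ext2 lies 61.99 Mb from Eif6. Of the 296 tested probes within 10 Mb of Eif6, 15 (5.07%) passed the study's threshold in polysomes, against 5.42% of all tested probes. Sdc4 had the largest polysome difference of these 296 and ranked 120 of 20250. In monosomes it ranked 38 of the 296 and 2611 of 20250, and 29.7% of the 296 passed that threshold against 28.6% of all. The window was chosen after these values were seen, and the part of position in the Sdc4 difference was not tested.

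Ext2, the partner of Ext1 in chain elongation, was higher in Het mice in whole muscle but not in polysomes. Its whole-muscle signals were 4.71, 5.41 and 4.89 in WT and 6.05, 7.04 and 7.03 in Het. The groups did not overlap, as was found for 13.6% of all tested probes, and the difference of 1.71 (5.0 ± 0.36 in WT and 6.71 ± 0.57 in Het, SD, n = 3 each) ranked 34 among all tested probes. Polysome signals of 5.75, 7.06 and 6.14 in WT overlapped those of 5.84, 5.24 and 7.19 in Het, with a difference of -0.22 (SE 0.51, 95% interval -1.34 to 0.89, adjusted p = 0.835 by limma).

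In monosomes the order of Ext2 was turned. WT mice 1 and 2 gave 6.51 and 8.84 and Het mice 1 and 3 gave 5.90 and 6.17, a difference of -1.64 (SE 0.74, unadjusted p = 0.0462 and adjusted p = 0.147 by limma). The highest value came from WT monosome 2, and without it the difference was -0.48 with an unadjusted p of 0.525. Of all tested probes, 28.6% passed the study's threshold in monosomes, as Ext2 did, and 50.4% had monosome groups that did not overlap.

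Ext2 was the member whose signal followed array brightness most closely downwards, with a correlation of -0.73 over the 16 arrays. With brightness as a term in the fit the whole-muscle difference was 0.55 in place of 1.71. In the authors' table it was 0.84 and with normexp 0.86. The difference was 2.15 on slide 1 and 0.99 on slide 2. Brightness differed between genotypes in whole muscle, where the parts of brightness and genotype in the Ext2 signal cannot be told apart.

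**Figure D3:**
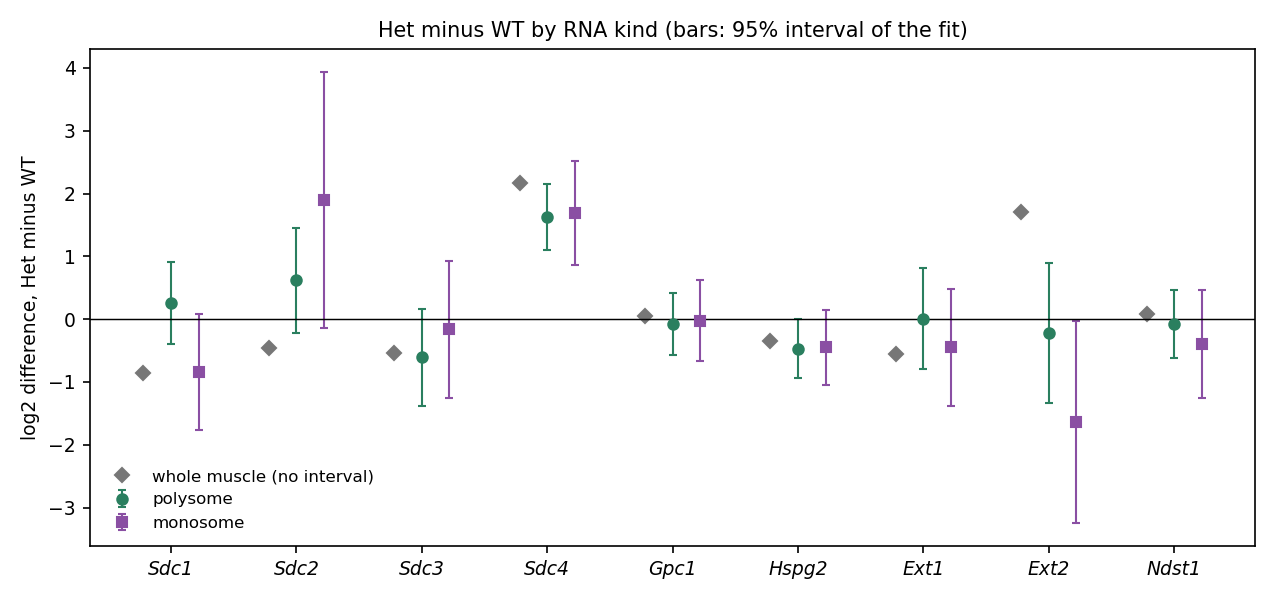
Het minus WT difference in log2 signal (y axis) of the 9 genes (x axis) in whole-muscle, polysome and monosome RNA. Points are fitted differences and bars their 95% intervals, with no interval for whole muscle, where the genes were chosen. Sdc4 alone lies above 1 in all 3 kinds of RNA, at 2.17, 1.62 and 1.68.

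Among the other syndecans no member passed the study's threshold in either comparison of ribosome-bound RNA. Sdc1, which is abundant on epithelial cells, had whole-muscle signals of 5.31, 4.45 and 4.44 in WT and 4.10, 3.83 and 3.72 in Het. These did not overlap, as for 13.6% of all tested probes, with a difference of -0.85. In Het whole muscle only 1 of 3 spots was well above background. With normexp the whole-muscle difference was -0.24 and in the authors' table -0.41. Polysome signals of Sdc1 were 5.21, 4.69 and 5.25 for WT and 4.89, 5.48 and 5.55 for Het, a difference of 0.26 (SE 0.30, adjusted p = 0.661 by limma). It was -0.058 on slide 1 and -0.075 with brightness as a term. In monosomes the difference was -0.84 (SE 0.43, adjusted p = 0.179 by limma), against -0.16 with normexp and -0.065 in the authors' table. Its correlation with brightness was 0.78.

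Sdc2, a syndecan of mesenchymal cells, gave 6.46, 6.43 and 6.33 in WT whole muscle and 6.24, 5.63 and 5.95 in Het. These groups did not overlap, as for 13.6% of all tested probes. The difference was -0.47. This was -0.20 with normexp, -0.23 in the authors' table and 0.28 with brightness as a term. WT polysome signals of 6.51, 4.92 and 6.49 overlapped the Het signals of 6.67, 6.35 and 6.74. The lowest of these belonged to WT polysome 2. The difference was 0.62 (SE 0.38, adjusted p = 0.438 by limma), and without that array it was 0.091. On WT monosome 2 the Sdc2 signal was 1.53 and not well above background, against 5.77 on WT monosome 1 and 5.67 and 5.42 on the Het monosome arrays. The monosome difference of 1.90 (adjusted p = 0.173) rested on this array and was -0.23 without it.

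Sdc3, the syndecan of nerve and of satellite cells, was 6.77, 6.08 and 6.28 in WT polysomes and 5.96, 5.61 and 5.73 in Het polysomes. The groups did not overlap, but the difference of -0.61 (SE 0.35) had an adjusted p of 0.419 by limma. It was -0.33 with normexp and -0.35 in the authors' table. Non-overlap of these groups was found for 21.7% of all tested probes. In whole muscle the WT signals of 6.14, 5.03 and 4.79 overlapped the Het signals of 5.16, 4.81 and 4.40, with a difference of -0.53.

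Hspg2, the perlecan of basement membranes, was bright and was lower on each Het than on each WT polysome array. Polysome groups did not overlap for 21.7% of all tested probes. WT polysome signals were 11.21, 10.90 and 11.08 and Het signals 10.64, 10.55 and 10.58. The difference was -0.47 (SE 0.21, 95% interval -0.94 to -0.003, adjusted p = 0.334 by limma). Monosome signals were 10.70 on both WT arrays and 10.35 and 10.15 on the Het arrays, a difference of -0.45 (adjusted p = 0.248). In whole muscle WT gave 10.34, 10.23 and 9.94 and Het 9.61, 10.15 and 9.68, which overlapped. Endothelial markers, of which 8 of 8 were tested, had a median polysome difference of -0.14, and fibroblast markers, with 8 of 8 tested, a median of -0.38. Their part in the Hspg2 difference was not tested.

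Gpc1, the glypican, was bright on every array and differed little between genotypes. Its signals ran from 12.34 to 12.90 in WT whole muscle and from 12.50 to 12.93 in Het whole muscle. The Het minus WT difference was 0.05 in whole muscle, -0.08 in polysomes (95% interval -0.57 to 0.41) and -0.02 in monosomes (95% interval -0.67 to 0.62). For the fractions these intervals leave room for changes of at most about 0.67 on the log2 scale in either direction.

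For the remaining enzymes, Ext1 and Ndst1, no genotype difference passed the threshold of the study in polysomes or monosomes. Ext1 polysome signals were 5.31, 5.26 and 5.24 for WT and 5.34, 5.33 and 5.16 for Het, a difference of 0.01 (95% interval -0.79 to 0.81). In whole muscle Ext1 ranged from 4.22 to 5.57 in WT and from 3.57 to 4.82 in Het, with only 1 of 3 Het spots well above background and a difference of -0.56. Its monosome signals of 5.41 and 5.27 in WT and 4.91 and 4.87 in Het did not overlap, as for 50.4% of all tested probes. The difference was -0.45 (95% interval -1.39 to 0.48). Ndst1 differed by 0.08 in whole muscle, by -0.08 in polysomes (95% interval -0.62 to 0.46) and by -0.39 in monosomes (95% interval -1.25 to 0.47). The untested second Hspg2 probe and the 2 untested Ndst1 probes had signals between 1.59 and 5.45 and give no basis for a comparison.

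In numbers, 0 of the 9 genes had an adjusted p under 0.05 between genotypes in polysomes by limma, where 0 of 20250 probes (0%) did. With an unadjusted p under 0.05 there were 2 of 9, Sdc4 and Hspg2, against 14.9% of all tested probes. Sdc4 was the only 1 of 9 past the study's threshold, against 5.42% of all. In monosomes 0 of 9 passed the adjusted threshold by limma (0.499% of all probes), 2 of 9 had an unadjusted p under 0.05 (33% of all), and the same 2, Sdc4 and Ext2, passed the threshold of the study (28.6% of all). The methods' t-test left 0 of 9 after adjustment in both comparisons. The median difference of the 9 genes was -0.08 in polysomes, -0.39 in monosomes and -0.35 in whole muscle, against 0.04, 0.10 and -0.03 over all tested probes.

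**Figure D4:**
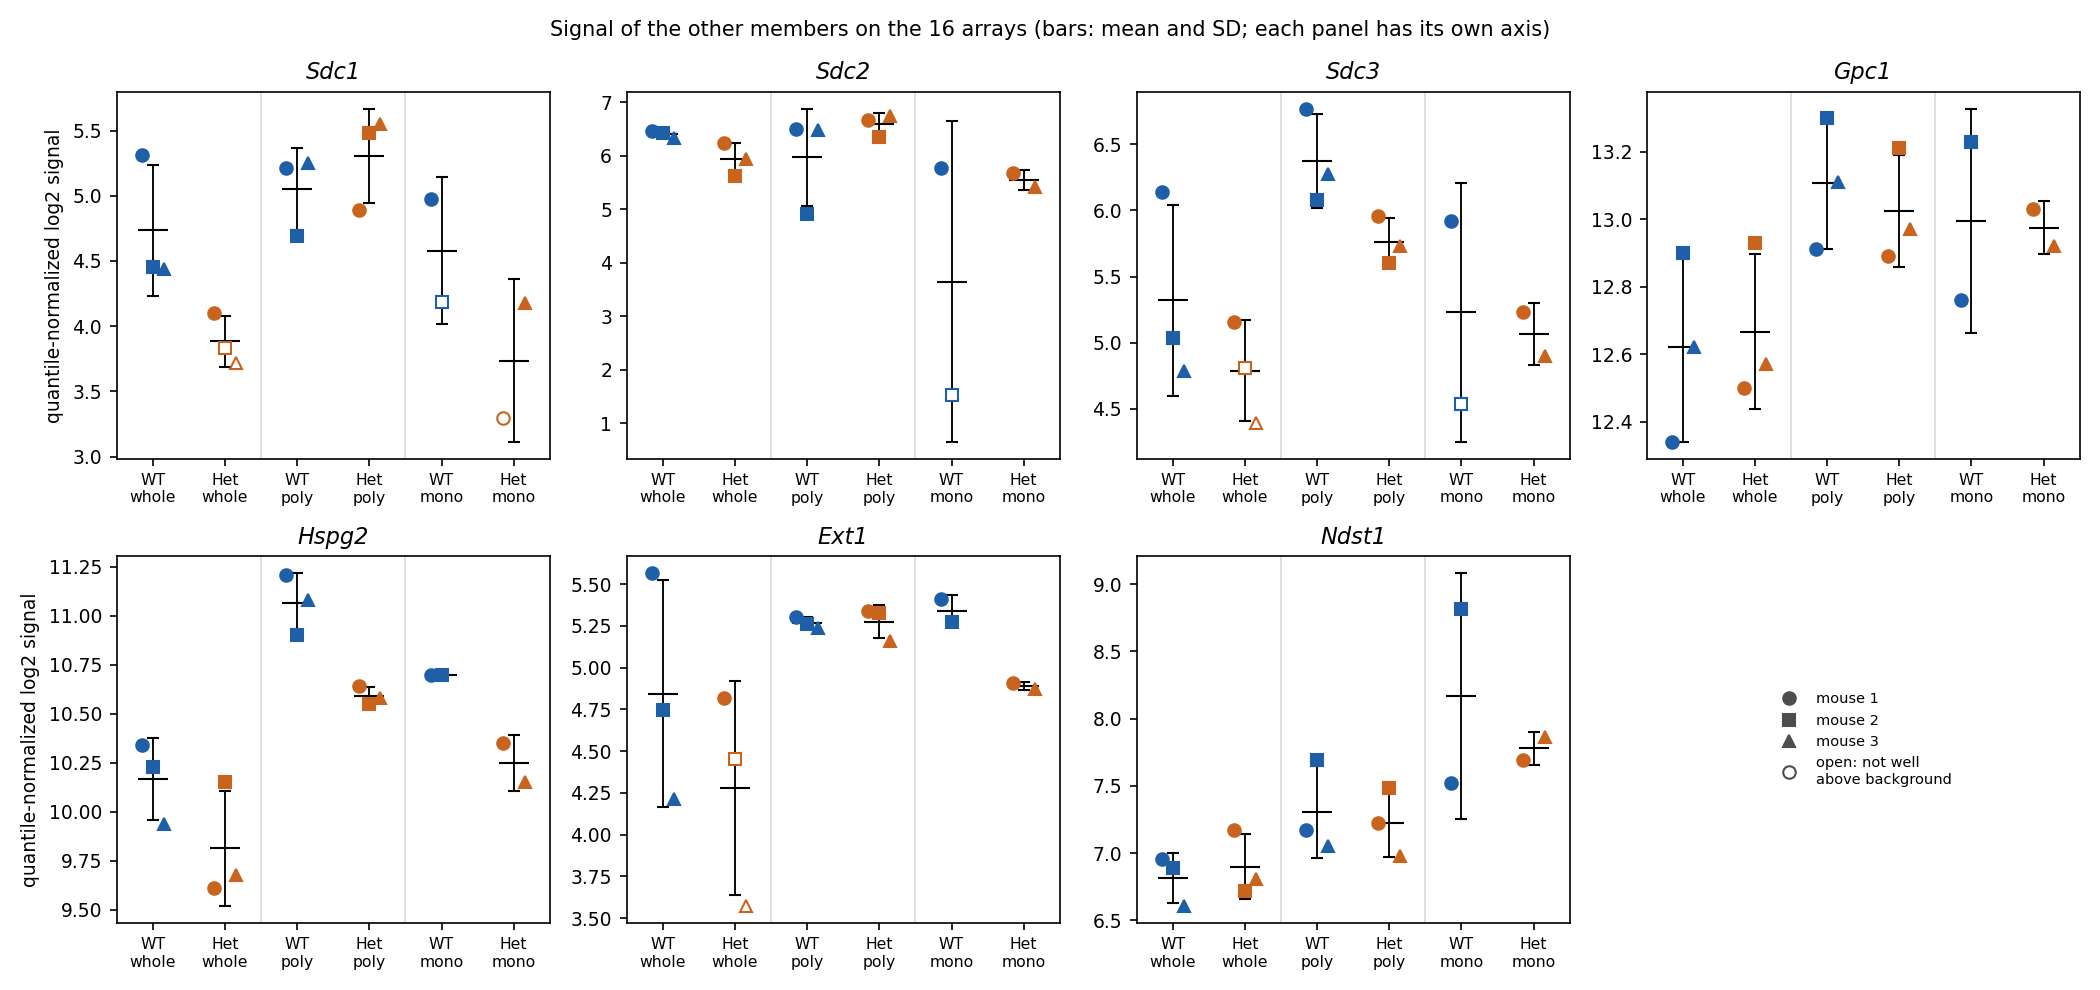
Quantile-normalized log2 signal (y axis, with its own range in each panel) of Sdc1, Sdc2, Sdc3, Gpc1, Hspg2, Ext1 and Ndst1 on the 16 arrays, by genotype and kind of RNA (x axis), with bars for the mean and SD of 2 or 3 arrays and open markers for spots not well above background. Sdc2 falls to 1.53 on WT monosome 2 alone, and Hspg2 is higher in polysomes (10.55 to 11.21) than in whole muscle (9.61 to 10.34) on every array.

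Each mouse gave both whole-muscle and polysome RNA, and the mean signals of all 9 genes were higher in polysomes, as were those of 57% of all tested probes. In a fit with the mouse as a block, 3 of the 9 passed an adjusted p of 0.05 by limma, all higher in polysomes, against 10.4% of all probes called higher and 18.1% called in either direction. These were Sdc3 at 1.02 (SE 0.18, adjusted p = 0.00666), Sdc1 at 0.87 (SE 0.21, adjusted p = 0.0220) and Hspg2 at 0.84 (SE 0.16, adjusted p = 0.00904). In the authors' table the differences were 0.50, 0.37 and 0.75, and with normexp 0.45, 0.28 and 0.77, for Sdc3, Sdc1 and Hspg2, and all passed. For Sdc3 it was 1.5 on slide 1 and 0.60 on slide 2, neither of which passed. The median of the 9 was 0.42, against 0.10 over all tested probes. By quantile normalization such values are relative to the other transcripts of the same RNA and not amounts per ribosome.

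The ratio within a mouse shows how even this was. For Sdc3 it was 0.63, 1.05 and 1.49 in WT mice and 0.80, 0.80 and 1.34 in Het mice. For Hspg2 it was 0.87, 0.67 and 1.15 in WT and 1.02, 0.40 and 0.91 in Het. Both genes were thus higher in polysomes in 6 of 6 mice, as 15.8% of all tested probes were. Sdc1 gave -0.10, 0.23 and 0.82 in WT and 0.79, 1.65 and 1.83 in Het, so that 1 WT mouse went the other way. With brightness as a term the Sdc1 difference was 0.61 (adjusted p = 0.109), where 9.16% of all probes were called. Without Het mouse 1 none of the 3 genes passed, with differences of 1.03 for Sdc1, 1.06 for Sdc3 and 0.78 for Hspg2. Without Het mouse 3 they were 0.77, 0.93 and 0.80 and did not pass either. The share of all probes called fell from 18.1% to 3.01% and 2.38% in these fits.

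Gpc1 (0.42, adjusted p = 0.0675) and Ext1 (0.71, adjusted p = 0.0597) lay just outside the threshold. Gpc1 passed with normexp (0.42, adjusted p = 0.00319) and in the authors' table (0.36, adjusted p = 0.0234), where 4 of the 9 were called. Gpc1 had the smallest spread of the 9, with ratios of 0.29 to 0.57 in 6 mice. Sdc2 had 0.05, -1.51 and 0.16 in WT and 0.43, 0.72 and 0.80 in Het, where the negative value came from the mouse whose polysome array stood apart. Its mean of 0.11 did not pass (adjusted p = 0.894). Ndst1 was higher in polysomes in 6 of 6 mice, by 0.41 on average (adjusted p = 0.214). Markers of several other cell types moved the same way, where 10.4% of all tested probes were called higher. All 8 endothelial markers were higher in polysomes, with 3 called, and 7 of 8 fibroblast markers, with 4 called. All 4 tested adipocyte markers were higher too, with 3 called. The 10 muscle fibre markers had a median of -0.38, with 2 called lower. Of the other lists, 2 of 4 satellite cell, 1 of 5 macrophage, 1 of 5 Schwann cell and 0 of 5 blood markers were called higher. Their part in the polysome signal of Sdc1, Sdc3 and Hspg2 was not tested.

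**Figure D5:**
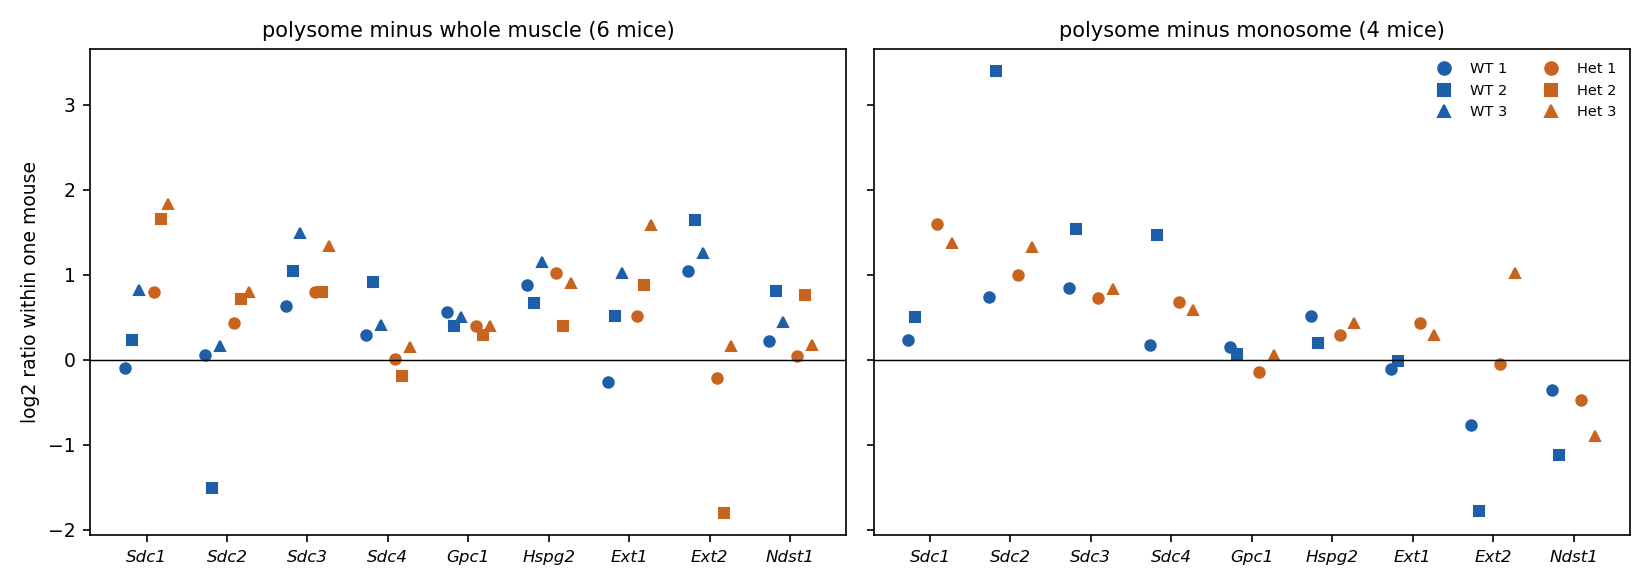
Log2 ratio within a mouse (y axis) of the 9 genes (x axis), polysome minus whole muscle in 6 mice on the left and polysome minus monosome in 4 mice on the right, with colours for the genotype and shapes for the mouse number. Sdc3, Hspg2, Gpc1 and Ndst1 lie above 0 in all 6 mice on the left, and Ext2 is above 1 in all 3 WT mice and at most 0.16 in the Het mice.

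How this ratio compared between genotypes is given without a test. The Ext2 ratio was 1.04, 1.65 and 1.26 in WT mice and -0.21, -1.80 and 0.16 in Het mice, a difference of -1.93 that contains its whole-muscle difference. Of all tested probes 22.4% had a difference beyond 1 in size. The Ext2 difference was -0.24 with brightness as a term, -0.96 with normexp and -0.99 in the authors' table. For Sdc4 the ratio was 0.29, 0.91 and 0.41 in WT and 0.01, -0.19 and 0.15 in Het, a difference of -0.55. The Sdc4 value was -1.22 on slide 1 and 0.20 on slide 2, so its direction turned with the slide. Differences of 1.11 for Sdc1 and 1.08 for Sdc2 went the other way. With brightness as a term they were 0.059 and -0.0092, and without WT mouse 2 that of Sdc2 was 0.54. The median of the 9 genes was -0.12, against 0.16 over all tested probes.

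Between the ribosome fractions, all 4 syndecans were higher in polysomes than in monosomes. Both RNAs came from 4 mice, and the fit used all 16 arrays with the mouse as a block. The fitted Sdc2 difference was 1.70 (SE 0.52, adjusted p = 0.0353 by limma), that of Sdc1 1.02 (SE 0.25, adjusted p = 0.0170), that of Sdc3 1.02 (SE 0.21, adjusted p = 0.0102) and that of Sdc4 0.69 (SE 0.22, adjusted p = 0.0429). With normexp the differences of Sdc2, Sdc1 and Sdc3 were 0.55, 0.30 and 0.45, and all passed, while Sdc4 at 0.23 did not (adjusted p = 0.0999 by limma), nor did it in the authors' table (0.24, adjusted p = 0.129). All 4 were higher in 4 of 4 mice, as 31% of all tested probes were. None of the other 5 genes passed with the values used here, so that 4 of 9 were called, all higher, against 19% of all probes called higher and 31.8% called in either direction. Ndst1 was called lower with normexp (-0.47, adjusted p = 0.0466 by limma) and in the authors' table (-0.55, adjusted p = 0.0413), so there too 4 of 9 passed, but with Ndst1 in place of Sdc4. The Sdc2 ratios of 0.74 and 3.39 in WT and 1.0 and 1.33 in Het show that WT mouse 2 had by far the highest of the 4.

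Without WT monosome 2, 2 of the 9 genes were called, and Sdc2 was at 0.84 (adjusted p = 0.0776) and Sdc4 at 0.44 (adjusted p = 0.118). With brightness as a term 0 of 9 genes passed by limma, as did 0% of all probes. Without Het mouse 1 or Het mouse 3 also 0 of 9 passed, against 0% and 0.731% of all probes, while the fitted Sdc4 difference was 0.77, 0.64 and 0.71 in these 3 fits. Brightness was 24.1 to 106 on the polysome and 12.7 to 36.4 on the monosome arrays. Ndst1 went the other way in 4 of 4 mice, with ratios of -0.35, -1.12, -0.47 and -0.89 and a fitted difference of -0.66 (adjusted p = 0.0665 by limma). The genotype difference of this ratio did not pass for any of the 9 genes, with adjusted p between 0.411 and 0.857.

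Monosome and whole-muscle RNA differed for 2 of the 9 genes, against 26.6% of all probes. Ndst1 was higher in monosomes by 1.07 (SE 0.25, adjusted p = 0.0167 by limma), with ratios of 0.57 and 1.93 in WT and 0.52 and 1.06 in Het. Sdc2 was lower by 1.59 on the log2 scale, at -1.59 (SE 0.52, adjusted p = 0.0492 by limma). It was -0.49 with normexp and -0.59 in the authors' table, and passed in both. Its ratios were -0.69 and -4.91 in WT and -0.57 and -0.53 in Het, and without WT monosome 2 it was at -0.73 (adjusted p = 0.141). Ext2 differed by 0.90 (adjusted p = 0.0882), with ratios of 1.80 and 3.43 in WT and -0.16 and -0.86 in Het, so that the genotypes moved in opposite ways.

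Ordered by level, most groups of a gene overlapped with their neighbours. For Hspg2 the 3 highest groups were WT polysome (11.06), WT monosome (10.70) and Het polysome (10.59), none of which overlapped the next group in the order. Ndst1 ran from WT monosome (8.17) and Het monosome (7.78), which overlapped each other, to WT whole muscle (6.81). For Ext2 WT whole muscle (5.0) was lowest and did not overlap Het monosome (6.03), the next in the order, but its highest array (5.41) was above the lowest of Het polysome (5.24).

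Over the 16 arrays the members fell into those that varied together and those that did not. The highest correlations between members were 0.76 for Hspg2 and Sdc3, 0.74 for Sdc1 and Sdc3 and 0.73 for Ext1 and both Sdc3 and Hspg2. The lowest were -0.82 for Ndst1 and Sdc2 and -0.75 for Ext2 and Sdc2. Without WT monosome 2 these were -0.54 and -0.45, still the lowest. Sdc4 and Ext2, although both were higher in Het whole muscle, correlated at 0.05, and at 0.54 without that array. The 3 highest without it were 0.88 for Hspg2 and Sdc3, 0.85 for Ext1 and Sdc3 and 0.74 for Sdc1 and Sdc3. Arrays of the same mouse or slide and the brightness of an array are shared by these points, so the values are descriptions.

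The probes most like Sdc4 over the 16 arrays were those of Mss51 (r = 0.82), Asb14 (0.79), Vldlr (0.79), Pfkfb3 (0.78) and Atp8b4 (0.74). Their Het minus WT differences were positive in all 3 kinds of RNA, between 0.35 and 0.52 in whole muscle, all smaller than that of Sdc4. Most like Ext2 were 1110017D15Rik (r = 0.95), Tead3 (0.94), Tnfrsf19 (0.93), Tssk5 (0.93) and Smok4a (0.93). Their Het minus WT differences were 0.82 to 1.46 in whole muscle and -1.98 to -1.29 in monosomes. Without WT monosome 2 their correlations with Ext2 were 0.87 to 0.90, and those of the first 5 with Sdc4 were 0.68 to 0.81. Since the probes were picked by likeness over these same arrays, a shared pattern follows from the choice.

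Other genes of the heparan sulfate system were counted from 5 lists. In polysomes, Het minus WT, no gene of any list passed an adjusted p of 0.05 by limma, as no probe on the array did. At the study's threshold 1 of 11 tested genes of chain synthesis (Extl2, 1.53), 1 of 10 of sulfation and editing (Hs3st5, 1.92) and 2 of 19 growth factors and receptors that bind heparan sulfate (Fgf7, 1.61, and Lpl, 1.42) were higher and none was lower, against 3.93% of all probes called higher. These were named after their values were seen. Without WT polysome 2 the differences were 0.72 for Extl2, 0.90 for Hs3st5, 0.71 for Fgf7 and 0.60 for Lpl, all under the study's limit of 1. None of the 8 other core proteins and none of the 10 partners and sheddases of syndecans passed. List medians lay between -0.15 and 0.18, near the 0.04 of all tested probes.

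In the comparison of polysomes with whole muscle, 2 of the 8 other core proteins were called, both higher, where 18.1% of all probes were called and 10.4% called higher. Gpc4, a glypican, was at 1.43 (adjusted p = 0.0177 by limma) and Gpc3 at 1.02. Gpc4 entered the tests by only 1 of the 6 groups, so its difference and p-value are not free of the filter. Of 19 growth factors and receptors 5 were higher and none lower, with Ptn (pleiotrophin) at 1.81 (adjusted p = 0.0222) and Pdgfb (a platelet-derived growth factor chain) at 1.28 (adjusted p = 0.00318). In chain synthesis 2 of 11 were higher and 1 lower, the linkage enzyme B3gat3 at -1.02 (adjusted p = 0.0350). Hs3st5, a 3-O-sulfotransferase, was the 1 of 10 sulfation genes called, at -1.33 (adjusted p = 0.0458). Without WT polysome 2, Gpc3 at 1.01 (adjusted p = 0.0614), Ptn at 1.76 (adjusted p = 0.0579) and Hs3st5 at -1.02 (adjusted p = 0.106) did not pass, while Gpc4, Pdgfb and B3gat3 did.

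Polysome minus monosome differences passed for 4 of 8 core proteins, all higher, against 19% of all probes called higher, with Gpc4 at 2.09 (adjusted p = 0.00716 by limma). Gpc4, and Hs6st2 named below, were well above background on all arrays of only 1 of the 6 groups. They entered the tests by that group alone, so their differences and p-values are not free of the filter. The mean log2 signal of the 8 was 4.19 on WT monosome 2 and 5.42 to 5.77 on the other monosome arrays. Without that array 2 of the 8 passed, both higher, with Gpc4 at 2.07 (adjusted p = 0.0150), where 30.6% of all probes were called. Without WT polysome 2 it was 1 of 8, Gpc4 at 2.15 (adjusted p = 0.0182). Ptn at 1.70 and the sulfotransferase Hs6st2 at 1.48 were the next in size of the listed genes called, and B3gat3 at -1.32 was the only one called lower. Without WT monosome 2 these 3 still passed, at 2.46, 1.70 and -1.26, and Fam20b (-1.35) and Vegfa (-0.84), named after their values were seen, were called lower too. Without WT polysome 2, Ptn at 1.64 (adjusted p = 0.0847) and Hs6st2 at 1.53 (adjusted p = 0.0620) did not pass, while B3gat3 at -1.58 did. In monosome minus whole-muscle RNA, Lpl (lipoprotein lipase) at -2.17, Fzd7 (a Wnt receptor) at -1.70 and Extl2 at -1.5 were lowest among those called, and Pdgfb at 0.90 and the sulfate donor transporter Slc35b2 at 0.80 were higher. Chain synthesis genes had a mean log2 signal of 5.87 on WT monosome 2, against 6.71 to 6.90 on the other monosome arrays, and growth factors and receptors one of 6.59 against 7.02 to 7.10. Without that array the differences were -1.57 for Lpl (adjusted p = 0.0624), -0.78 for Fzd7 (adjusted p = 0.101), -1.05 for Extl2 (adjusted p = 0.161) and 0.70 for Pdgfb (adjusted p = 0.0528), none of which passed, and 0.78 for Slc35b2 (adjusted p = 0.0373), which did. The number called per list was between 0 and 5 of the 8 to 19 genes tested, against backgrounds of 18.1% to 31.8% over all probes in these 3 comparisons. The highest number, 5 of 19 growth factors and receptors, was in polysomes against whole muscle. In whole muscle the median Het minus WT difference was between -0.47 and -0.08 for the 5 lists, and no listed gene was above 0.56, while Sdc4 and Ext2 were at 2.17 and 1.71.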

How the data were processed

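Cy3-labelled RNA was hybridised to 1-colour Agilent mouse arrays. Per the file headers, the authors' scanner files (Agilent Feature Extraction 11.0.1.1) hold a processed intensity from which background was subtracted and trends removed. The authors' deposited table holds log2 values of the raw median signal, quantile-normalized with no background subtracted, and was an alternative here. Processed intensities were log2 transformed and quantile-normalized over 16 arrays, as the methods state for the study. Spots flagged as outliers were left out, spots of 1 probe were averaged, and 63 probes that lacked a value on any array were dropped. Saturated spots numbered 0.

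Groups were compared with limma 3.58.1 in R 4.3.3 (lmFit, eBayes), with Benjamini-Hochberg adjustment over 20250 probes and a threshold of 0.05. Polysome genotype differences used the 12 whole-muscle and polysome arrays, and monosome differences all 16. Kinds of RNA were compared with the mouse as a block, since the design gives the same animals for each. Deviations of polysome and monosome arrays of a mouse correlated at 0.35 to 0.66, and those of whole-muscle and polysome arrays at 0.05 to 0.48. Those of whole-muscle and monosome arrays of a mouse correlated at 0.03 to 0.33. WT and Het arrays of the same number and kind of RNA, which are different mice, gave -0.33 to 0.45. The block thus rests on the stated design. The code was tested on simulated data. Members and lists were chosen with earlier results of these data known. Named from the lists are up to 3 genes past the adjusted threshold in each direction per comparison, and for Sdc4 and Ext2 the 5 probes with the highest Pearson correlation. The probe with the highest mean stood for a gene. Genes are named as in the array files. Of 26695 probes with a RefSeq mRNA accession 26391 matched the RefSeq table, and 24908 had the same symbol there, as all 9 members did. The number of arrays limits the precision. The limma p-values between genotypes rest on a spread pooled over these 12 or 16 arrays, with arrays of the same mouse taken as independent. Those between kinds of RNA rest on the spread within mice. Plots used matplotlib 3.10.9 in Python 3.11.15, and reading of files data.table, version 1.17.8.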

Additional observations from a re-analysis of the deposited data

Results flagged for a closer look

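For 3 ratios within a mouse, every WT mouse moved one way and every Het mouse the opposite way. Each rests on 2 mice per genotype. Such a split was found for 2 of 9 genes and 12.8% of all tested probes in the ratio of monosomes to whole muscle, and for 1 of 9 genes and 9.25% in that of polysomes to monosomes. The ratio of Ext2 in monosomes to whole muscle was above 0 in both WT mice (1.80 and 3.43) and below it in both Het mice (-0.16 and -0.86), a difference of -3.12. That of Sdc3 was below 0 in WT (-0.22 and -0.50) and above it in Het (0.07 and 0.51), a difference of 0.65. These differences between genotypes were not tested, and both share the whole-muscle arrays with which the genes were chosen. The Ext1 ratio of polysomes to monosomes was -0.10 and -0.01 in WT and 0.43 and 0.29 in Het, a difference of 0.42. In a limma fit of the 16 arrays the same difference was 0.24 with an adjusted p of 0.818.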

How the results depend on the processing

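Sdc4 stayed higher in Het under all alternatives run. Its polysome difference was 1.48 to 1.75 with a mouse left out, and it no longer passed the study's threshold in the authors' table (0.72) and with normexp (0.61), where its size was under 1, and on slide 1 alone (1.23), where its p was 0.065. In whole muscle it was 2.09 to 2.31 with a mouse left out, 0.74 with normexp, 0.94 in the authors' table, 2.45 on slide 1 and 1.83 on slide 2. Ext2 in whole muscle was 1.54 to 2.04 with a mouse left out, 0.86 with normexp, 0.84 in the authors' table, 0.99 on slide 2 and 0.55 with brightness as a term. The genotype difference of its polysome to whole-muscle ratio was -2.32 to -1.34 with a mouse left out and -0.92 on slide 2. It was -0.96 with normexp, -0.99 in the authors' table and -0.24 with brightness.

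Counts of the 9 genes with an adjusted p under 0.05 moved as follows, and the share of all probes called moved too. For polysome minus whole muscle (3) the range with a mouse left out was 0 to 4 (2.38% to 30.1% of all probes), and it was 0 on either slide alone (0%). For polysome minus monosome (4) it was 0 to 5 with a mouse left out (0% to 44.1%), 1 of 4 genes tested when only probes well above background everywhere were kept (56.1%), 2 without a filter (8.35%), 0 on slide 1 and 0 with brightness as a term (0% each), 1 with no replicate block (26%), 0 by the methods' t-test (10.8%), and 2 without WT monosome 2 (30.6%) or WT polysome 2 (23.8%). For monosome minus whole muscle (2) it was 0 to 4 with a mouse left out (0.0198% to 47.6%), 4 with normexp (29.2%), 5 in the authors' table (30.1%), 4 of 4 with the strict filter (42.7%), 0 on slide 1 (0%), 0 with brightness as a term (6.54%), and 1 with slide as a term, with no replicate block, by the methods' t-test or without WT monosome 2 (9.03% to 25%). For monosome genotype differences (0) it was 0 to 4 with a mouse left out, the 4 without WT mouse 1 (53.2%), and 2 on slide 2 (40.6%). For polysome genotype differences it was 0 under every alternative. At the study's threshold the polysome count (1) was 1 with any mouse left out and 0 with normexp, in the authors' table, with the strict filter, which drops Sdc4, and on slide 1. The monosome count (2) was 1 to 4 with a mouse left out, 1 with normexp, in the authors' table, with either change of filter, with slide as a term and on slide 1, and 0 by the methods' t-test. Where kinds of RNA were compared, no replicate block means, here and below, a fit without the mouse as a block. For genotype differences the replicate block is by sample number, and WT and Het samples with the same number share only that number. With this replicate block the polysome difference of Sdc4 was 1.62 (adjusted p = 0.196 by limma) and the monosome difference 1.63, and no count of the 9 genes moved.

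Of the whole-muscle and ratio differences, which were not tested, 20 values also turned sign, between -0.49 and 0.35. Among them the Sdc4 ratio difference (-0.55) was 0.20 on slide 2, and with brightness the whole-muscle differences of Sdc2 (-0.47), Sdc3 (-0.53) and Ext1 (-0.56) were 0.28, 0.29 and 0.16. The sign turned in a further 60 values, mostly near 0. In polysomes, Het minus WT, Ext1 (0.0082) was -0.0014 with 75th percentile scaling, -0.031 in the authors' table, -0.13 with slide, -0.33 with brightness and -0.023 to 0.066 with a mouse left out. Ext2 (-0.22) was 0.073 on slide 2, 0.31 with brightness, 0.15 without WT polysome 2 and -0.77 to 0.20 with a mouse left out. Gpc1 (-0.081) was 0.071 with brightness, 0.015 without WT polysome 2 and -0.18 to 0.015 with a mouse left out. Ndst1 (-0.078) was 0.18 on slide 2, 0.12 without WT polysome 2 and -0.21 to 0.12 with a mouse left out. Sdc1 (0.26) was -0.058 on slide 1 and -0.075 with brightness. In monosomes Gpc1 (-0.025) was 0.26 with 75th percentile scaling, 0.081 in the authors' table, 0.082 with brightness, 0.27 on slide 1, 0.13 with the replicate block, 0.21 without WT monosome 2 and -0.26 to 0.21 with a mouse left out. Ndst1 (-0.39) was 0.17 on slide 1, 0.26 without WT monosome 2 and -1.04 to 0.26 with a mouse left out, Sdc2 (1.90) was -0.10 on slide 1, -0.23 without WT monosome 2 and -0.23 to 4.02 with a mouse left out, and Sdc3 (-0.16) was 0.37 on slide 2 and -0.85 to 0.53 with a mouse left out. For monosome minus whole muscle, Sdc1 (-0.15) was 0.031 on slide 1, 0.17 with brightness and -0.39 to 0.12 with a mouse left out, and Sdc3 (-0.0022) was 0.048 with 75th percentile scaling, 0.014 in the authors' table, 0.88 on slide 1, 0.12 with brightness or without WT monosome 2, 0.094 with no replicate block or by the methods' t-test and -0.089 to 0.12 with a mouse left out. For polysome minus monosome, brightness turned Ext1 (0.21) to -0.29 and Ext2 (-0.55) to 0.078, and Gpc1 (0.024) was -0.12 with 75th percentile scaling, -0.0067 in the authors' table and -0.029 to 0.069 with a mouse left out. For polysome minus whole muscle, Sdc2 (0.11) was -0.0051 with brightness and -0.041 to 0.38 with a mouse left out, and the genotype difference of its polysome to whole-muscle ratio (1.08) was -0.0092 with brightness. The causes were not tested. The alternatives without WT monosome 2 or WT polysome 2 were chosen after seeing the data. Low signal over background limits Sdc1, Sdc3, Sdc4 and Ext1 most.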
